A study of Mus musculus with 12 samples.

Results

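Integrins and laminins were followed in RNA from the mandibular condylar fibrocartilage, the tissue that caps the jaw joint, of ovariectomized female C57BL/6 mice. The members are the 37 genes of the raw count table, of 23284 rows in all, whose symbol names an integrin alpha chain, an integrin beta chain from 1 to 8, or a laminin chain. They comprise 26 integrin and 11 laminin genes, and all 37 passed the filter on low counts, as did 14832 genes in all. Mice were ovariectomized at 16 weeks of age, carried a pellet of 17β-estradiol (E2, 0.01 mg, 60-day release) or placebo (Plb) for 1 week, and gave tissue at 17 weeks. There were 3 libraries of ERalphaKO mice given E2, 4 of ERalphaKO mice given placebo, 3 of wild-type (WT) mice given E2 and 2 of WT mice given placebo. ERalphaKO mice lack estrogen receptor alpha. The labels do not say which part of its gene Esr1 was removed, in which cells, or whether replicate libraries came from separate animals, so p-values measure the spread between these libraries.

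Integrins are cell surface receptors made of an alpha and a beta chain, which tie the cytoskeleton to the matrix outside the cell or to other cells. Alpha chains of the collagen-binding, laminin-binding and RGD-binding classes hold cells to matrix, the last through the Arg-Gly-Asp motif of proteins such as fibronectin. The leukocyte chains, led by the beta2 chain Itgb2, serve adhesion and migration of blood cells. Laminins are secreted as trimers of an alpha, a beta and a gamma chain, form the sheet of basement membranes, and are the ligands of the laminin-binding integrins.

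Total counts per library ran between 9.70e+06 and 2.88e+07. Esr1 had 3.65 to 5.78 CPM (counts scaled to 1e+06 per library) in the 7 ERalphaKO libraries and 8.52 to 17.5 CPM in the 5 WT libraries, so transcripts of the gene were still counted in ERalphaKO tissue. All 13 listed chondrocyte and fibrocartilage markers were detected, and their summed level was 71898 to 113895 CPM over the 12 libraries. The samples hold all cells of the tissue, and other cell types entered them unevenly. The summed level of 12 granulocyte markers reached 7477 CPM in ERalphaKO E2 library 1 and 17011 CPM in ERalphaKO placebo library 3, against 5.37 CPM in the library lowest in them, WT E2 library 2. The summed level of 12 skeletal muscle markers was 8.45 to 5228 CPM. In such bulk tissue, fewer cells of a type and less RNA per cell cannot be told apart.

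To show what lies just before the start of genes described in the results, the RefSeq promoter (250 bases before to 50 bases after the start, build GRCm38.p6) is given for 4 of the 23 members that could be matched to a promoter, 2 integrins and 2 laminins chosen after their values were seen. They are Itga10 (chr3:96645334-96645633, plus strand), Itga4 (chr2:79255176-79255475, plus strand), Lama2 (chr10:27616893-27617192, minus strand) and Lama5 (chr2:180225810-180226109, minus strand). Capitals mark the letters GGTCA or TGACC, the half-site of the estrogen response element, and the letters GGGCGG or CCGCCC, the GC box.
Itga10: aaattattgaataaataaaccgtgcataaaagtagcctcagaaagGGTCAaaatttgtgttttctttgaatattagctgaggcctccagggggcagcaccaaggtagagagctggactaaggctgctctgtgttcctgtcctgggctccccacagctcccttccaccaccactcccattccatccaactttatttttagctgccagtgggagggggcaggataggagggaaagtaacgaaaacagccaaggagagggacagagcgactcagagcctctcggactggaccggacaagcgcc
Itga4: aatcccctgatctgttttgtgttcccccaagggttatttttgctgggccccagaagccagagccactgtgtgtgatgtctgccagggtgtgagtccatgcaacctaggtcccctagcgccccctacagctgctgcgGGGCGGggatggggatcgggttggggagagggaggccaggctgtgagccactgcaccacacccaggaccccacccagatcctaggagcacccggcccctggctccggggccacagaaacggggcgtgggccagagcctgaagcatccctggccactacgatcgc
Lama2: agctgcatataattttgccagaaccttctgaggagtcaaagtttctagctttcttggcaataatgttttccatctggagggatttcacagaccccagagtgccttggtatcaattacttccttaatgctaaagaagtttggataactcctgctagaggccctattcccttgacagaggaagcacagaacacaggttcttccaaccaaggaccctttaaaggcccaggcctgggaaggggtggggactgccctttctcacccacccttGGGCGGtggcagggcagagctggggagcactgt
Lama5: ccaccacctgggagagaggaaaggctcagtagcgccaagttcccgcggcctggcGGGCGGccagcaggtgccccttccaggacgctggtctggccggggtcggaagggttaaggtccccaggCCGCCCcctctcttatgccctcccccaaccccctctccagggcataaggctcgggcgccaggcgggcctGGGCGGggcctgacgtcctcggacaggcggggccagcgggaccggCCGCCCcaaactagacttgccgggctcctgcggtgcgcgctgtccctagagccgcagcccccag
Motifs were searched on both strands, the full element containing 2 half-sites, in 26 promoters of members. The half-site was in 6 of 26 promoters, or 23.1%, against 40.5% of all 32851 RefSeq promoters. Of the 4 shown, Itga10 holds 1 half-site. The GC box was in 12 of 26, or 46.2%, against 35.7% of all promoters, and Lama5 holds 4 of them. The full element GGTCANNNTGACC was in 0 of 26 promoters and in 0.07% of all. Such matches describe the letters of this window only. The promoters of Itga6, Itga7, Itgad, Itgae, Itgal, Itgb2, Itgb3, Itgb4, Lama1, Lama3, Lama4, Lamc1 and Lamc3 are not given here.

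Levels were first compared between members, scaled by length as CPM per kilobase of the longest annotated protein-coding transcript. Itgb1, the beta chain shared by most matrix receptors, was highest at 263 ± 24.2 CPM per kb (SD, n = 12 libraries). Itgb5, which pairs with alpha-v, followed at 168 ± 17.6, and the ranges of these 2 genes over libraries did not meet. Next came Itga10, a collagen receptor of cartilage cells, at 69.7 ± 17.6 CPM per kb.

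Itgav, Lamb2, Itgb3 and Itga11 came next, at 45.1, 43.6, 41.2 and 39.1 CPM per kb on average, and neighbours in that order lay within each other's SD. Itga5, the fibronectin receptor's alpha chain, had 30.9 ± 3.13. Itgb2 averaged 26.9 CPM per kb with an SD of 17.2, so its place in the order depended on the library. The lowest were Itgae, Lama1 and Itgad at 0.107, 0.0947 and 0.0562 CPM per kb.

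**Figure D1:**
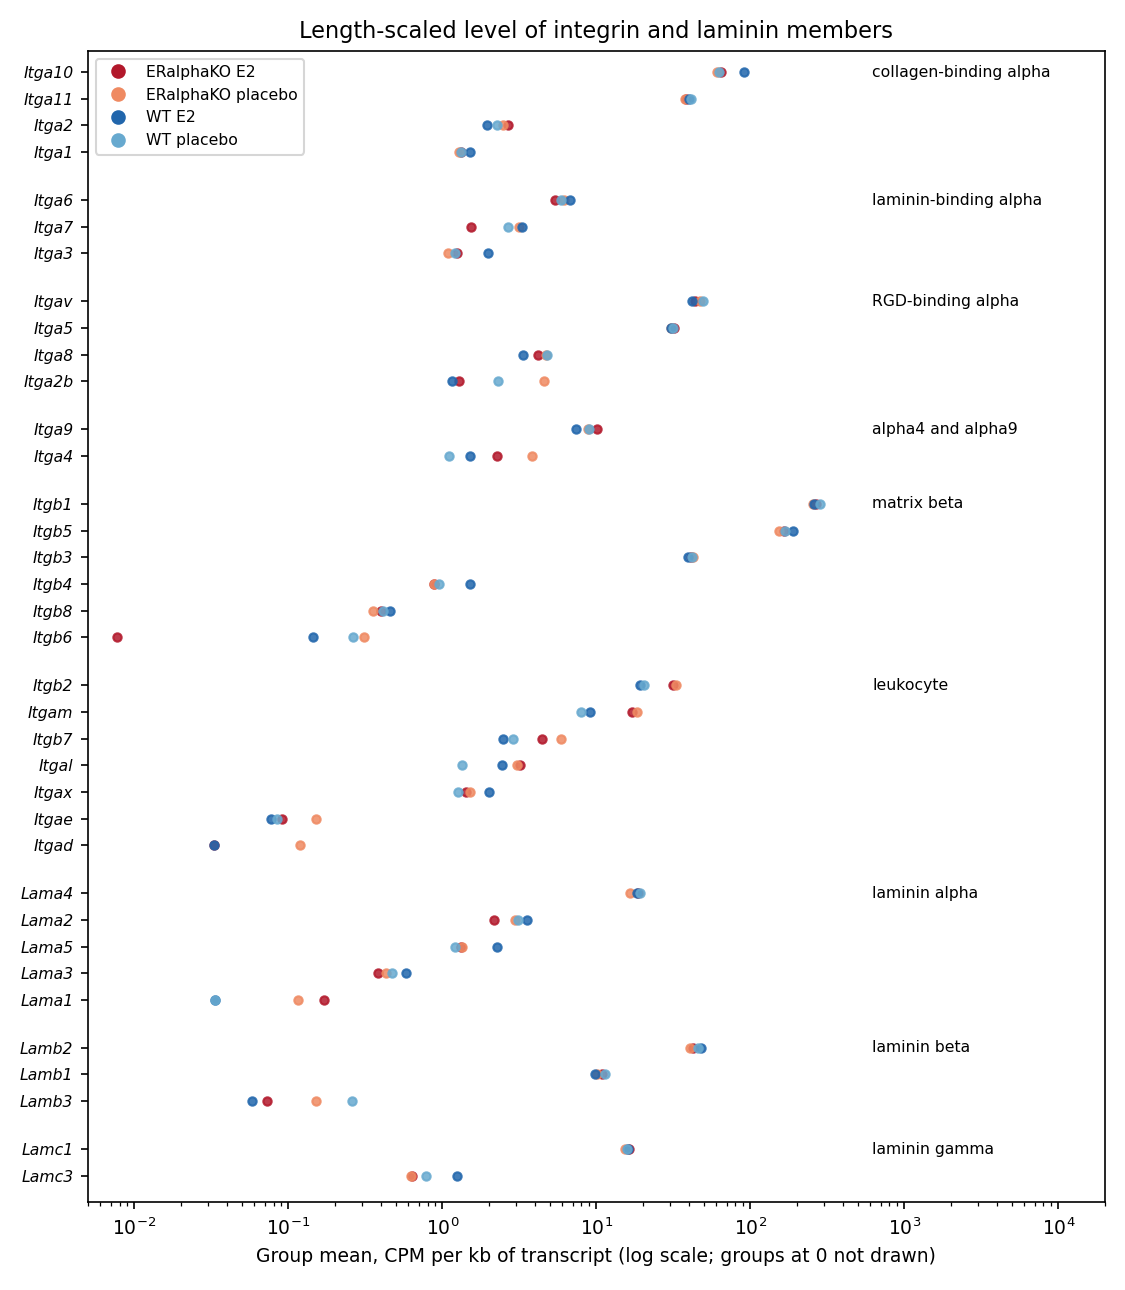
Group mean level of 36 members in CPM per kb of transcript on a log axis, 1 dot per group, ordered by role class. The 4 dots of most matrix receptors lie close together, while most leukocyte chains, Itga4, Itga2b, Itgb6, Lama1 and Lamb3 spread between groups.

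Within each laminin chain type 1 gene held most of the length-scaled RNA. Lama4, the alpha chain of vessel and mesenchymal basement membranes, made up 82.2 ± 0.55% of alpha chain RNA in ERalphaKO E2 libraries, 77.1 ± 3.56% in ERalphaKO placebo, 73.9 ± 4.60% in WT E2 and 80.1 ± 0.923% in WT placebo libraries (SD, n = 3, 4, 3 and 2). Lamb2 made up 76.1 to 88.5% of beta chain RNA and Lamc1 87.3 to 92.9% of gamma chain RNA over the 12 libraries. Lama5, the alpha chain of mature epithelial and vessel basement membranes, held 5.88 ± 0.43% of alpha chain RNA in ERalphaKO E2 and 6.38 ± 1.09% in ERalphaKO placebo libraries. It held 9.44 ± 4.58% in WT E2 and 4.99 ± 0.329% in WT placebo libraries. These shares are of transcripts, not of trimers.

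The design gives 5 comparisons, each tested with edgeR's quasi-likelihood test over all 14832 genes, with adjusted p-values by Benjamini-Hochberg and a threshold of 0.05. They share libraries, so a gene high in 1 group appears in several of them. Of all members and comparisons, 1 call was made, for Lama1 between genotypes under E2.

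Lama1, the laminin alpha chain of embryonic and nervous system basement membranes, was higher in ERalphaKO E2 than in WT E2 tissue. It had 1.69, 1.89 and 1.28 CPM in ERalphaKO E2 libraries and 0.251, 0.141 and 0.563 CPM in WT E2 libraries. Under placebo it had 1.02, 0.947, 1.08 and 1.33 CPM in ERalphaKO libraries and 0.235 and 0.403 CPM in WT libraries. The 7 ERalphaKO libraries thus all lay above the 5 WT libraries. These are few reads, 17 to 33 counts per ERalphaKO library and 3 to 11 per WT library. All 7 ERalphaKO libraries and 2 of 5 WT libraries reached 10 or more counts. The filter scales its minimum of 10 by library size, and Lama1 passed it through the ERalphaKO libraries, where it was high.

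The log2 fold change of Lama1 between genotypes under E2 was 2.32 ± 0.445 (SE), 5.0-fold, at an adjusted p of 0.0372 in edgeR's quasi-likelihood test. Under placebo it was 1.73 ± 0.486 at an adjusted p of 0.384, which did not pass. E2 itself gave 0.55 ± 0.374 in ERalphaKO (adjusted p = 0.962) and -0.05 ± 0.518 in WT tissue (adjusted p = 0.995). The E2 effect in WT minus that in ERalphaKO was -0.60 ± 0.648 (adjusted p = 0.892), so no difference between the genotypes' responses was resolved. The authors' deposited table for the genotypes under E2 gives a log2 fold change of 1.86 and an adjusted p of 0.0127. The call was lost when any 1 of 10 of the 12 libraries was left out; over the 12 fits without 1 library the log2 fold change was 1.97 to 3.0. The summed level of 10 lymphocyte markers was 16.2 to 197 CPM in ERalphaKO and 10.9 to 21.4 CPM in WT libraries. ERalphaKO E2 library 2, the highest in Lama1, had the 16.2 CPM. With lymphocyte marker level in the model the log2 fold change of Lama1 under E2 was 2.28 and did not pass (adjusted p = 0.195). The part of lymphocytes was not tested further.

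**Figure D2:**
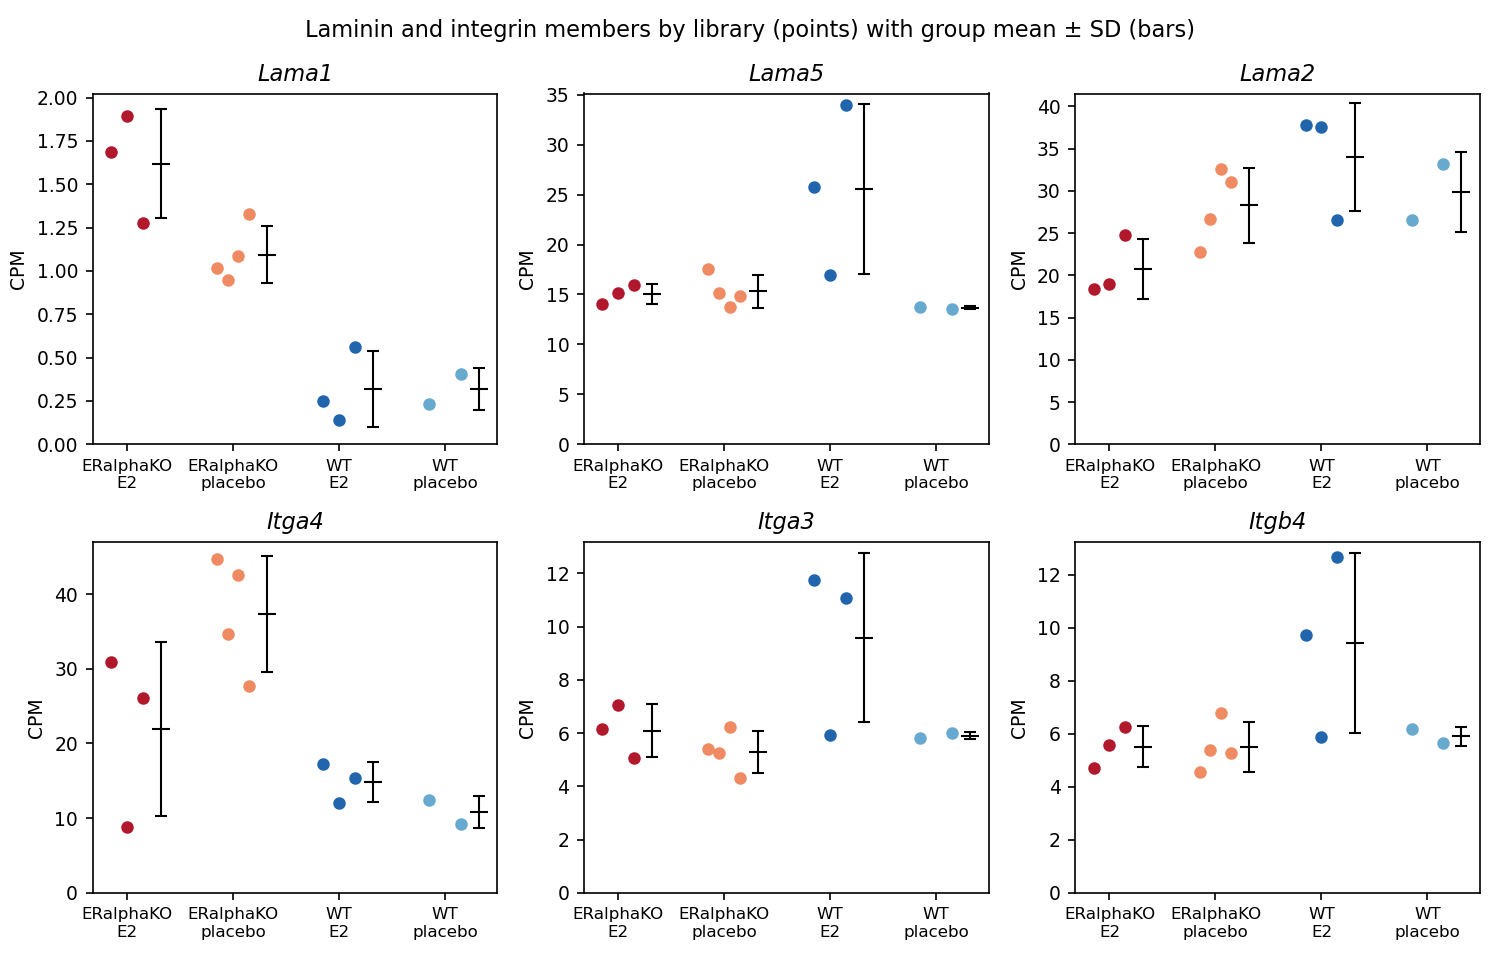
CPM of 6 members in each library (points) by group, with the group mean ± SD (bar), from ERalphaKO E2 on the left to WT placebo on the right. Lama1 lies higher in every ERalphaKO library, and Lama5, Itga3 and Itgb4 stand apart in WT E2 libraries 1 and 3.

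Under E2, 10 of 37 members had an unadjusted p under 0.05 between genotypes, 3 higher in ERalphaKO and 7 lower, against 11.5% of all genes tested. Lama1, 1 of the 3 higher, passed the filter through the ERalphaKO libraries. DESeq2 called 3 members, Lama1, Lama2 and Lama5, and also more of all genes, as given in the closing section. The 1 member called in edgeR stands beside 1.1% of all genes in edgeR. The 163 genes behind that share were 51 without ERalphaKO E2 library 1 and 236 without WT E2 library 2. Groups did not overlap for 2 members higher and 6 lower in ERalphaKO, against 6.97% and 8.94% of all genes. Their median log2 fold change was 0.04, against -0.00 for all genes.

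The laminin alpha chains Lama2, Lama3 and Lama5 and the gamma chain Lamc3 lay lower in every ERalphaKO E2 library than in any WT E2 library, without passing the test. Lama2, the laminin chain of muscle and peripheral nerve, had 18.4, 18.9 and 24.8 CPM in ERalphaKO E2 libraries and 37.8, 37.5 and 26.6 CPM in WT E2 libraries, with no overlap. Its log2 fold change was -0.71 ± 0.185 (adjusted p = 0.122), and the authors' deposited table has it below the threshold at an adjusted p of 0.0229. Lama2 had 22.8, 26.7, 32.6 and 31.1 CPM in ERalphaKO placebo libraries and 26.5 and 33.2 CPM in WT placebo libraries. E2 gave -0.45 ± 0.174 in ERalphaKO tissue (unadjusted p = 0.0265, adjusted p = 0.848). Its E2 effect in WT minus that in ERalphaKO was 0.63 ± 0.269 (unadjusted p = 0.0391, adjusted p = 0.706). The Lama2 difference was -0.51 with muscle marker level in the model and -0.47 with lymphocyte marker level.

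Lama3, an epithelial chain, had 4.34, 3.78 and 3.99 CPM in ERalphaKO E2 libraries and 6.17, 5.46 and 6.66 CPM in WT E2 libraries. The groups did not overlap, and the log2 fold change was -0.59 ± 0.169 (adjusted p = 0.166). Lamc3, a gamma chain, had 3.92, 3.57 and 3.73 CPM in ERalphaKO E2 and 9.94, 5.13 and 6.71 CPM in WT E2 libraries. Here too no library overlapped (log2 fold change -0.95 ± 0.304, adjusted p = 0.222). Under placebo, Lama3 had 4.85, 3.83, 5.42 and 4.02 CPM in ERalphaKO and 5.04 and 4.95 CPM in WT libraries, and Lamc3 had 5.03, 3.29, 2.87 and 3.46 CPM in ERalphaKO and 5.87 and 3.26 CPM in WT libraries.

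Lama5 was highest in WT E2 libraries 1 and 3. In ERalphaKO it had 14.0, 15.1 and 16.0 CPM with E2 and 17.6, 15.2, 13.7 and 14.8 CPM with placebo. In WT it had 25.7, 16.9 and 34.0 CPM with E2 and 13.8 and 13.6 CPM with placebo. Every WT E2 library lay above both WT placebo libraries and above all ERalphaKO E2 libraries, while WT E2 library 2 lay below ERalphaKO placebo library 1 and the ERalphaKO groups overlapped.

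The log2 fold change of Lama5 by E2 was 0.90 ± 0.233 in WT (unadjusted p = 0.00275, adjusted p = 0.205) and -0.02 ± 0.192 in ERalphaKO tissue (adjusted p = 1). Between genotypes under E2 it was -0.76 ± 0.205 (adjusted p = 0.136). The E2 effect in WT minus that in ERalphaKO was 0.93 ± 0.301 (unadjusted p = 0.0109, adjusted p = 0.537). None of these passed. Without WT E2 library 2, the lowest of its group, the E2 effect was 1.13 at an adjusted p of 0.0114 and the genotype difference -0.99 at 0.0105. Leaving out the lowest library of the higher group widens both differences by design, so these values are no support. Over the 23 alternative fits of the closing section the E2 effect was 0.445 to 1.13 and the genotype difference -0.99 to -0.35. Each passed in 2 of the 23.

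Itga3 and Itgb4, an alpha and a beta chain of different laminin receptors of epithelial cells, followed the same libraries. Itga3 had 6.14, 7.04 and 5.06 CPM in ERalphaKO E2, 5.39, 5.23, 6.24 and 4.30 in ERalphaKO placebo, 11.7, 5.93 and 11.1 in WT E2, and 5.81 and 6.01 CPM in WT placebo libraries. Itgb4 had 4.70, 5.57 and 6.24 CPM in ERalphaKO E2, 4.55, 5.37, 6.78 and 5.27 in ERalphaKO placebo, 9.73, 5.88 and 12.7 in WT E2, and 6.16 and 5.64 CPM in WT placebo libraries. WT E2 library 2 again sat with the other groups.

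E2 in WT gave 0.70 ± 0.281 for Itga3 and 0.68 ± 0.289 for Itgb4 (adjusted p = 0.552 and 0.586). Between genotypes under E2 the log2 fold changes were -0.66 ± 0.249 and -0.77 ± 0.258 (adjusted p = 0.325 and 0.25). Without WT E2 library 2, again the lowest of its group, both passed in that comparison, at -0.91 and -1.02 (adjusted p = 0.0487 and 0.0425). This was 1 of 23 alternative fits for each gene, and the only 1 in which it passed. Over the 23 the values were -0.91 to -0.064 for Itga3 and -1.02 to -0.0905 for Itgb4.

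Several marker levels moved along with these 3 genes. The summed level of 10 endothelial markers was 507, 321 and 574 CPM in WT E2 libraries, against 334 to 372 CPM in WT placebo libraries. That of 11 macrophage markers was 1209.6, 811 and 1355 CPM, against 688 to 885 CPM. That of 9 osteoblast and osteocyte markers was 8766, 6576 and 10675 CPM, against 5891 to 5983 CPM. Much of the bone sum was Ibsp, with 4376, 3416 and 6169 CPM in WT E2 and 2189 and 2516 CPM in WT placebo libraries. Of these 9 markers 6 were higher and 3 lower with E2 in WT, with a median log2 fold change of 0.09. The summed level of 6 epithelial markers was 9.73, 4.75 and 9.06 CPM in WT E2 and 5.28 and 3.66 CPM in WT placebo libraries. Most of it was Epcam, with 188, 88 and 167 counts in WT E2 and 70 and 81 counts in WT placebo libraries. Krt5 went the other way, with 1, 11 and 6 counts in WT E2 and 13 and 17 counts in WT placebo libraries, and Krt14 and Krt8 had 0 counts in all of these.

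With macrophage marker level in the model the log2 fold change by E2 in WT was 0.45 for Lama5, 0.029 for Itga3 and -0.0771 for Itgb4. With endothelial marker level it was 0.52 for Lama5, 0.17 for Itga3 and 0.074 for Itgb4. Between genotypes under E2 the macrophage term gave -0.35 for Lama5, -0.064 for Itga3 and -0.0905 for Itgb4, and the endothelial term -0.46, -0.25 and -0.30 for the same genes. None of these passed. Macrophage marker level did not itself overlap between the groups compared. Its mean log2 CPM was 5.475 to 6.24 in WT E2, 5.05 and 5.44 in WT placebo, and 5.157 to 5.474 in ERalphaKO E2 libraries. The fit could therefore separate it from E2 or genotype only in part, and the part of other cells in the differences was not tested further.

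Among the matrix receptors, Itga10 had 265, 424 and 292 CPM in ERalphaKO E2, 420.1, 267, 244 and 301 CPM in ERalphaKO placebo, 412, 430.3 and 532 CPM in WT E2, and 315 and 319.5 CPM in WT placebo libraries. All WT E2 libraries lay above both WT placebo libraries. With E2 in WT it differed by a log2 fold change of 0.53 ± 0.249 (adjusted p = 0.624) and the genotype difference under E2 was -0.49 ± 0.22 (unadjusted p = 0.0493, adjusted p = 0.432). The authors' deposited table for E2 in WT gives 0.52 with an adjusted p of 0.0202.

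Itga2, a collagen receptor also carried by platelets, had 19.5, 16.0 and 21.7 CPM in ERalphaKO E2 and 12.9, 13.4 and 15.4 CPM in WT E2 libraries, with no overlap. Under placebo it had 18.6, 20.4, 15 and 16.6 CPM in ERalphaKO and 16.4 and 15.8 CPM in WT libraries. The log2 fold change between genotypes under E2 was 0.46 ± 0.143 (adjusted p = 0.215).

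Itga9, a receptor for tenascin and osteopontin, had 74.7, 66.0 and 71.8 CPM in ERalphaKO E2 and 42.1, 45.2 and 67.1 CPM in WT E2 libraries. It had 56.6, 69.8, 53.1 and 67.5 CPM in ERalphaKO placebo and 53.3 and 71.8 CPM in WT placebo libraries. The groups overlapped under E2, and the log2 fold change was 0.46 ± 0.181 (adjusted p = 0.346).

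The most abundant receptors varied little. Itgb1 had 996, 964 and 1079 CPM in ERalphaKO E2, 929, 1032, 893 and 1065 in ERalphaKO placebo, 952, 1156 and 841 in WT E2, and 1098 and 1054 CPM in WT placebo libraries. Itgb5 had 498, 591 and 533 CPM in ERalphaKO E2, 495, 504, 509 and 513 in ERalphaKO placebo, 639, 677 and 549 in WT E2, and 552 and 551 CPM in WT placebo libraries. For Itgb5, all ERalphaKO placebo libraries lay below both WT placebo libraries. Over all 4 comparisons between groups their log2 fold changes lay between -0.20 and 0.17.

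Itgav, the alpha chain of vitronectin receptors, had 299.9, 269 and 351 CPM in ERalphaKO E2, 337, 376, 279 and 326 in ERalphaKO placebo, 278, 322 and 290.1 in WT E2, and 367 and 325 CPM in WT placebo libraries. Itga5 had 117, 139 and 161 CPM in ERalphaKO E2, 132, 134, 116 and 151 in ERalphaKO placebo, 135, 146 and 118 in WT E2, and 139.6 and 135 CPM in WT placebo libraries. Itga11, a collagen receptor of fibroblasts, had 153, 232 and 189 CPM in ERalphaKO E2, 207, 196, 161 and 185 in ERalphaKO placebo, 190.0, 244 and 163 in WT E2, and 202 and 209 CPM in WT placebo libraries. None of these 3 had an unadjusted p under 0.05 in any comparison, and their groups overlapped except that both WT placebo libraries of Itgav lay above all WT E2 libraries.

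Itga6, the alpha partner of Itgb4, had 20.1, 21.7 and 27.4 CPM in ERalphaKO E2, 30.6, 24.2, 25.6 and 25.5 in ERalphaKO placebo, 26.2, 25.8 and 35.2 in WT E2, and 24.8 and 26.0 CPM in WT placebo libraries. Lama4 had 108, 103 and 126 CPM in ERalphaKO E2, 92.0, 108, 81.1 and 118 in ERalphaKO placebo, 129, 121 and 85.1 in WT E2, and 113 and 120.1 CPM in WT placebo libraries. Neither reached an unadjusted p under 0.05 in any comparison.

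Lamb2 had 215, 272 and 227 CPM in ERalphaKO E2, 242, 225, 211 and 234 in ERalphaKO placebo, 258, 259 and 286 in WT E2, and 256 and 258 CPM in WT placebo libraries. Lamb1 had 60.4, 56.2 and 72.6 CPM in ERalphaKO E2, 48.2, 59.7, 60.4 and 64.4 in ERalphaKO placebo, 68.4, 64.9 and 37.4 in WT E2, and 69.8 and 62.5 CPM in WT placebo libraries. Lamc1 had 124, 99.8 and 149 CPM in ERalphaKO E2, 101, 133, 101 and 133 in ERalphaKO placebo, 126, 129 and 112 in WT E2, and 120.0 and 122 CPM in WT placebo libraries. These chains had no unadjusted p under 0.05 in any comparison, though both WT placebo libraries of Lamb2 lay above all ERalphaKO placebo libraries.

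In WT tissue, E2 against placebo called 1 member, Lama5, in DESeq2, which also called more of all genes, as given in the closing section. In edgeR's test 0 of 37 members were called, against 0.458% of all genes. The 68 genes behind that share were 1 without WT placebo library 2 and 131 without WT E2 library 2. An unadjusted p under 0.05 came up for 4 members, 3 higher with E2 (Lama5, Itga3 and Itgb4) and 1 lower (Lamb3), against 8.14% of all genes. The groups did not overlap for 3 members higher and 6 lower, against 13.2% and 13.7% of all genes. The median log2 fold change was 0.02, against -0.00 for all genes.

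Lamb3, an epithelial beta chain, had 0, 0.235 and 0.615 CPM in WT E2 and 1.29 and 1.25 CPM (22 and 34 counts) in WT placebo libraries. In ERalphaKO it had 0.542, 0.105 and 0.409 CPM with E2 and 0.539, 0.767, 1.05 and 0.603 CPM with placebo. The fitted log2 fold change by E2 in WT was -2.14 ± 0.822 (adjusted p = 0.519). WT E2 library 1 had 0 counts, which allows up to 0.151 CPM, counting error only.

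In ERalphaKO tissue, E2 against placebo called 0 of 37 members and 0 of all genes (0%), in edgeR and in DESeq2. An unadjusted p under 0.05 came up for 3 members, all lower with E2 (Itga2b, Itgb6 and Lama2), against 5.7% of all genes. No member's groups stood apart in either direction, against 2.58% higher and 3.09% lower of all genes. The median log2 fold change was 0.00, as for all genes.

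Itga2b, the platelet and megakaryocyte receptor chain, had 4.28, 4.10 and 4.75 CPM in ERalphaKO E2 and 9.99, 3.43, 40.5 and 8.73 CPM in ERalphaKO placebo libraries. In WT it had 4.21, 4.0 and 3.64 CPM with E2 and 11.6 and 4.29 CPM with placebo. For E2 in ERalphaKO the value was -1.84 ± 0.705 (adjusted p = 0.848). The summed level of 6 other platelet markers was 15.1, 14.8 and 19.3 CPM in ERalphaKO E2 and 29.3, 15.1, 200.3 and 37.7 CPM in ERalphaKO placebo libraries, and the libraries high in them were those high in Itga2b.

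Itgb6, an epithelial beta chain, had 0.0602, 0 and 0.0511 CPM in ERalphaKO E2 and 0, 0.586, 4.65 and 0.724 CPM in ERalphaKO placebo libraries. In WT it had 1.30, 0.471 and 0.307 CPM with E2 and 0 and 2.53 CPM with placebo. Pooled counts were 2 with E2 and 151 with placebo in ERalphaKO, a CPM ratio of 0.026 (exact 95% interval 0.0031 to 0.0954, counting error only). ERalphaKO placebo library 3 alone held 120 of the counts. The E2 effect in ERalphaKO did not pass (adjusted p = 0.848), and it took the other sign with muscle marker level in the model, at 0.99.

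Itga7, the laminin receptor chain of muscle, varied along with muscle markers. It had 4.82, 6.94 and 6.80 CPM in ERalphaKO E2, 5.86, 8.16, 26.3 and 10.1 in ERalphaKO placebo, 17.8, 10.9 and 10.9 in WT E2, and 6.57 and 14.9 CPM in WT placebo libraries. The summed muscle markers were 9.20 to 47.5 CPM in ERalphaKO E2, 13.6 to 5228 in ERalphaKO placebo, 202 to 978 in WT E2, and 8.45 to 2172 CPM in WT placebo libraries. Itga7 and the muscle markers were highest in the same library, ERalphaKO placebo 3, and all ERalphaKO E2 libraries lay below all WT E2 libraries in both. Between genotypes under E2 its log2 fold change was -1.09 ± 0.524 (adjusted p = 0.458), while the authors' deposited table gives -1.04 with an adjusted p of 0.00672. The part of muscle in the difference was not tested further.

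**Figure D3:**
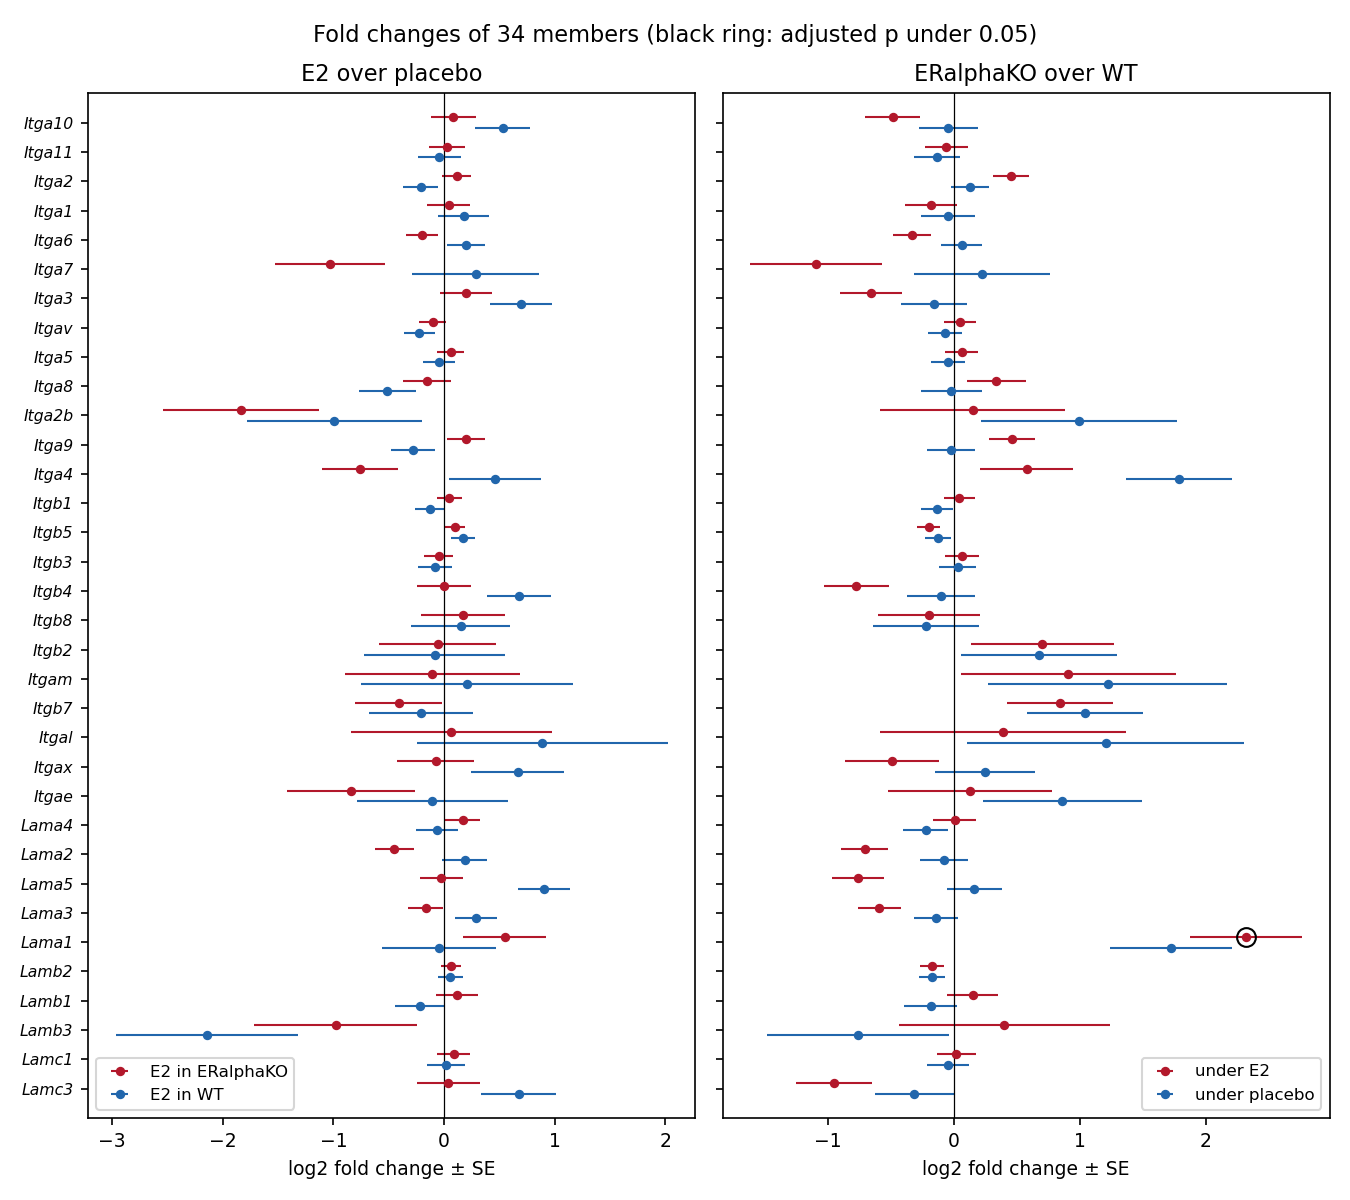
Log2 fold change ± SE of 34 members by E2 in each genotype (left) and by genotype in each treatment (right), with a black ring at an adjusted p under 0.05. Itgad and Itgb6, whose counts are near 0 in 1 or more groups, are not drawn, and the 1 ring is at Lama1.

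Between genotypes under placebo, 0 of 37 members were called by edgeR and 1, Itga4, by DESeq2, against 0.0135% of all genes in edgeR. DESeq2 also called more of all genes there, as given in the closing section. An unadjusted p under 0.05 came up for 4 members, all higher in ERalphaKO (Itga4, Lama1, Itgad and Itgb7), against 8.93% of all genes. Lama1 and Itgad passed the filter on low counts through ERalphaKO libraries, where they were high, so their direction is no support. The groups did not overlap for 4 members higher (Itga4, Lama1, Itgad and Itgae) and 3 lower in ERalphaKO, against 10.5% and 10.6% of all genes. For Itgae the gap was narrow, with 0.362 CPM or more in ERalphaKO placebo and 0.352 CPM or less in WT placebo libraries. The median was -0.04, against 0.01 for all genes.

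Itga4, a receptor chain of lymphocytes and other blood cells that binds VCAM1 and fibronectin, had 44.6, 34.6, 42.6 and 27.7 CPM in ERalphaKO placebo and 12.4 and 9.27 CPM in WT placebo libraries. With E2 it had 31.0, 8.83 and 26.0 CPM in ERalphaKO and 17.2, 12 and 15.3 CPM in WT libraries. The placebo groups did not overlap, whereas ERalphaKO E2 library 2 lay below all WT libraries. The log2 fold change was 1.79 ± 0.42 under placebo (unadjusted p = 0.00143, adjusted p = 0.33) and 0.58 ± 0.366 under E2 (adjusted p = 0.611). The E2 effect in WT minus that in ERalphaKO was 1.21 ± 0.541 (unadjusted p = 0.0472, adjusted p = 0.723). The authors' deposited table for placebo gives 1.71 with an adjusted p of 3.04e-11.

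Lymphocyte markers separated the same libraries. The summed level of 10 lymphocyte markers was 63.6 to 197 CPM in ERalphaKO placebo and 10.9 to 14.4 CPM in WT placebo libraries. With E2 it was 118, 16.2 and 37.8 CPM in ERalphaKO and 16.5, 12.5 and 21.4 CPM in WT libraries. ERalphaKO E2 library 2, low in Itga4, was the ERalphaKO library with the lowest sum. With lymphocyte marker level in the model the genotype difference of Itga4 under placebo was 0.21. That level nearly coincided with genotype under placebo, at a mean log2 CPM of 2.42 to 3.28 in ERalphaKO and -0.29 and -0.76 in WT libraries. The fit could therefore hardly separate it from genotype, and the part of lymphocytes was not tested further.

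The leukocyte chains Itgam, Itgb2 and Itgal were highest in libraries rich in granulocyte markers. Itgam, the alpha chain of the complement receptor on granulocytes and macrophages, had 176, 21.3 and 42.3 CPM in ERalphaKO E2, 36.2, 31.0, 219 and 58.0 in ERalphaKO placebo, 48.4, 29.7 and 50.1 in WT E2, and 51.9 and 22.2 CPM in WT placebo libraries. Itgb2 had 167, 42.6 and 69.4 CPM in ERalphaKO E2, 54.9, 57.0, 204 and 71.7 in ERalphaKO placebo, 61.5, 49.3 and 60.9 in WT E2, and 76.7 and 45.0 CPM in WT placebo libraries. Itgal, the lymphocyte function chain, named here after its values were seen, had 38.0, 3.78 and 8.08 CPM in ERalphaKO E2, 10.8, 4.33, 38.3 and 10.5 in ERalphaKO placebo, 11.1, 4.19 and 23.1 in WT E2, and 11.2 and 2.82 CPM in WT placebo libraries. Each was highest in the 2 libraries named above for granulocyte markers, and the groups overlapped. All adjusted p for these 3 genes lay at or above 0.716. All 12 granulocyte markers had positive log2 fold changes between genotypes, with a median of 3.02 under E2 and 3.45 under placebo. These markers vary together over libraries, and the groups stood apart for only 1 of 12 under E2 and 0 of 12 under placebo. Their part was not tested further. Other leukocyte chains had their highest level elsewhere, Itgax at 11.9 CPM in WT E2 library 3 and Itgae at 0.857 CPM in ERalphaKO placebo library 2.

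The 7 leukocyte chains (Itgad, Itgae, Itgal, Itgam, Itgax, Itgb2 and Itgb7) made up 2.58 to 15.3% of integrin CPM over libraries. Itga4 and Itga2b, also chains of blood cells, were not counted among them. The 2 libraries rich in granulocyte markers held 12.7% and 15.3%, and the other 10 held 2.58 to 5.04%.

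Itgb7, the partner of Itga4 and Itgae in gut-homing lymphocytes, had 16.3, 8.98, 26.0 and 11.8 CPM in ERalphaKO placebo and 9.44 and 5.93 CPM in WT placebo libraries. With E2 it had 16.4, 8.09 and 10.9 CPM in ERalphaKO and 6.32, 4.33 and 9.22 CPM in WT libraries. The groups overlapped in both, and the placebo difference was 1.04 ± 0.462 (unadjusted p = 0.046, adjusted p = 0.558).

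Itgad, a beta2 partner of macrophages, was counted near 0. It had 11, 15, 14 and 2 counts in ERalphaKO placebo and 0 and 0 in WT placebo libraries. With E2 it had 5, 0 and 2 counts in ERalphaKO and 0, 1 and 7 in WT libraries. Against a floor of 3 counts over the WT placebo group, the pooled ERalphaKO placebo counts were at least 6.93-fold higher, counting error only. This does not hold for each library, as ERalphaKO placebo library 4, at 0.0804 CPM, lay near the floor of 0.0677 CPM. The difference did not pass (adjusted p = 0.457 in edgeR's test). Itgad passed the filter only through the ERalphaKO placebo libraries, the group where it was highest.

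**Figure D4:**
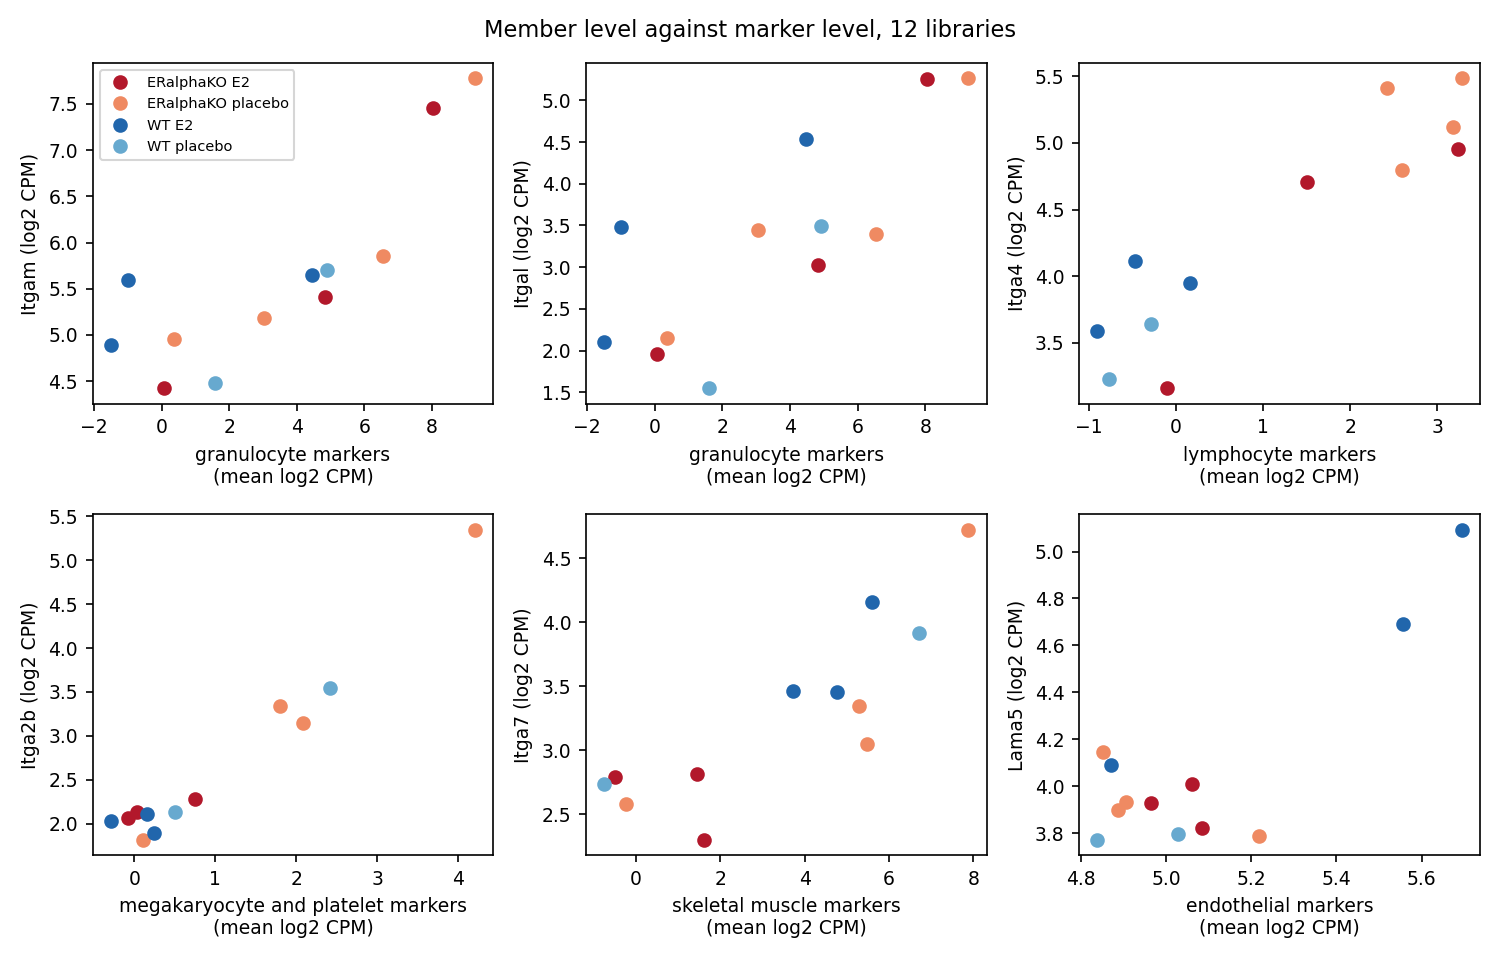
Log2 CPM of 6 members (vertical axis) against mean log2 CPM of a marker list (horizontal axis), 1 dot per library, colored by group. Itgam and Itgal lie highest in the libraries of highest granulocyte markers, the 6 libraries highest in Itga4 are the 6 highest in lymphocyte markers, and Lama5 is highest in WT E2 libraries 1 and 3.

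The interaction, the E2 effect in WT minus that in ERalphaKO, called 0 of 37 members in edgeR and in DESeq2, against 0.0539% of all genes in edgeR. An unadjusted p under 0.05 came up for 4 members, all positive (Itga4, Itgad, Lama2 and Lama5), against 6.78% of all genes. Itgad had 0 counts in both WT placebo libraries and passed the filter only through the ERalphaKO placebo libraries, so its sign is no support. The median was 0.13, against 0.02 for all genes.

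Partners of these receptors were read from 3 lists. Of 26 tested adaptors of focal adhesions, which link integrins to actin, 0 were called in any comparison by edgeR, and at most 2 had an unadjusted p under 0.05 in 1 comparison. Filamin A (Flna), the most counted, had 1004, 834 and 973 CPM in ERalphaKO E2, 912, 914, 1033 and 967 in ERalphaKO placebo, 924, 1047 and 789 in WT E2, and 1079 and 993 CPM in WT placebo libraries. Of 17 tested genes of basement membranes and laminin receptors, 1 was called, Ntn4, lower in ERalphaKO E2. Netrin-4 (Ntn4), which binds laminin networks, had 26.3, 36.2 and 23.7 CPM in ERalphaKO E2 and 50.5, 49.6 and 71.0 CPM in WT E2 libraries. The log2 fold change was -0.997 ± 0.205 (adjusted p = 0.049).

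Of 17 tested genes for other integrin ligands, 1 was called, thrombospondin 1 (Thbs1), a matrix protein bound by several integrins. It had 165, 152 and 139 CPM in ERalphaKO E2 and 130.1, 156, 209 and 143 CPM in ERalphaKO placebo libraries, and 649, 551 and 587 CPM in WT E2 and 175 and 135 CPM in WT placebo libraries. The WT E2 libraries lay above all others. It rose with E2 in WT by a log2 fold change of 1.94 ± 0.203 (adjusted p = 0.00344) and was lower in ERalphaKO under E2, at -1.97 ± 0.175 (adjusted p = 0.000444). The difference of E2 effects was 2.01 ± 0.254 (adjusted p = 0.025). Bone sialoprotein (Ibsp) lay just outside the threshold between genotypes under E2, at -1.06 ± 0.22 (adjusted p = 0.0505).

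Of the remaining members, Itga1, Itga8, Itgax, Itgae, Itgb3 and Itgb8 had no unadjusted p under 0.05 in any comparison. Itga1, the fibroblast collagen receptor, ran between 10.6 and 20.3 CPM, and Itgb3, the osteoclast receptor chain, between 189.9 and 292 CPM. Itgax, a dendritic cell chain, ran between 3.15 and 11.9 CPM and Itga8 between 12.1 and 33.9 CPM. Itgb8 ran between 1.08 and 5.04 CPM and Itgae, at 1 to 19 counts per library, between 0.0602 and 0.857 CPM.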

How the data were processed

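Poly-A RNA of whole fibrocartilage of the mandibular condyle was sequenced as 100-base reads (RIN at least 9), per the labels' protocols. Per the submitters' processing notes, reads were handled with bcl2fastq 2.17 and TopHat on build mm9. How reads were counted, with or without strand, is not stated in the labels. The authors deposited raw counts per gene symbol, and tables of their own comparisons with log2 fold changes and p-values. From the counts, genes were kept with edgeR 4.0.16's group-wise filter (minimum count 10) in R 4.3.3, scaled by TMM, and fitted with the quasi-likelihood test over all 12 libraries, 1 mean per group, with Benjamini-Hochberg adjustment. CPM used these scaled library sizes, and length scaling used GENCODE M21 transcripts. Scripts were tested on simulated counts. Library totals were 9.70e+06 to 2.88e+07 counts, and count floors (3 counts) and intervals cover counting error only. The members and lists were chosen with earlier results of these data known. Members are named if called, if at an unadjusted p under 0.05, or if among the 2 highest of their class; the others, except Itgal, are given by range, and 1 member and 1 marker are not reported here by name. Alternatives, DESeq2 1.42.0 among them, are in the closing section.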

Additional observations from a re-analysis of the deposited data

Results flagged for a closer look

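One value stood far from the rest of its group. Itgad, near 0 in all libraries, had 0.0804 CPM in ERalphaKO placebo library 4, against 0.542 to 0.677 CPM in the other 3 ERalphaKO placebo libraries. Only the ERalphaKO placebo group, with 4 libraries, could be examined this way, once for each of 37 members. Chance flags about 1 in 20 such groups, and 1 of 37 was found.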

How the results depend on the processing

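Counts of called members hung on the test and on single libraries. DESeq2 called 1 member in WT for E2 (Lama5), 1 for genotype under placebo (Itga4) and 3 for genotype under E2 (Lama1, Lama2, Lama5), where edgeR called 0, 0 and 1. For genotype under E2 the count was 0 with the replicate block, with granulocyte, skeletal muscle, macrophage or lymphocyte marker level as a covariate, with only the E2 libraries, and without both ERalphaKO libraries of highest granulocyte marker level. Leaving out 1 library gave 0 to 1 called members in WT for E2, and 0 to 3 between genotypes given E2, the 3 being Itga3, Itgb4 and Lama5 without WT E2 library 2. The Lama1 call stayed under median-of-ratios scaling, DESeq2, no low count filter, the endothelial covariate, and without ERalphaKO placebo library 3 or WT E2 library 3. Its direction held under all 23 alternatives. 2 fold changes took the other sign: Itgb4 for E2 in WT, -0.0771 with the macrophage covariate, and Itgb6 for E2 in ERalphaKO, 0.99 with the muscle covariate; the cause was not tested. The lymphocyte and endothelial covariates and the leave-out of both granulocyte-rich libraries were chosen after seeing the data. Over all genes, called counts were 68 (edgeR) and 246 (DESeq2) in WT given E2, 163 and 491 between genotypes given E2, 2 and 151 given placebo, and 8 and 101 for the interaction. Over the 12 fits without 1 library these edgeR counts were 1 to 131 in WT given E2, 51 to 236 between genotypes given E2, 1 to 4 given placebo and 0 to 31 for the interaction, the highest of the first 2 and of the last without WT E2 library 2. Pairing by replicate number was not established, with same-number correlations of deviations of -0.326 to 0.500. Between genotypes under placebo they were 0.322 and 0.500, against -0.500 to 0.156 for other pairs. The 2 WT placebo libraries deviate from their mean as mirror images, so the check cannot exclude pairing. With the replicate block the E2 comparison in WT had 18 calls and that of genotypes given E2 had 62. Median-of-ratios scaling moved no median of all genes by 0.1. The 2 libraries of WT placebo, and counts of 3 to 33 for Lama1, limit precision.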
